A study of Mus musculus with 12 samples.

Results

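CD8 T cells sorted from mouse brains 30 days after stroke were set against CD8 T cells sorted from the brains of naive mice, with 3 libraries in each group out of 12 libraries in the study. The comparison covered 17489 of 23937 genes, those with a CPM (the authors' count scaled to the size of the library) of at least 1 in at least 3 of the 6 libraries. RNA from the sorted cells was amplified with a full-length, ultra-low-input kit and sequenced. The other 6 libraries, from brain 3 days after stroke and from naive blood, entered only the shared estimate of the spread and the levels given beside some genes. All 4 groups carry the label CD8 T cells and none carries a genetic change or a drug. The sources used here do not give the strain, age and sex of the mice or the way the stroke was made. Although the protocol text names spleens, the tissue in each sample label was followed. No label ties a library to a mouse of its own. P-values therefore reflect only the spread among these libraries, which may be technical.

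CD8 T cells kill infected or damaged cells, and a small population of them lives in the brain as tissue-resident memory cells or arrives there after injury. Microglia are the resident macrophages of the brain and can present antigen to CD4 T cells on MHC class II molecules. AP-1 transcription factors are dimers of Jun, Fos and Atf proteins. Their genes belong to the immediate early class, which is transcribed within minutes of receptor signalling or of stress.

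Against this background, 5 of 17489 genes were lower at day 30 than in naive brain and none was higher (limma, Benjamini-Hochberg adjusted p under 0.05). The lower genes were 0.0286% and the higher genes 0.0% of those tested. They were the AP-1 genes Jun, Fos and Atf3, the MHC class II beta chain gene H2-Ab1, and Glul, which encodes glutamine synthetase. Their fitted levels were between 16.8-fold (Atf3) and 35.8-fold (Jun) lower at day 30. On the log2(CPM + 1) scale used throughout, a fold change of a low gene is understated. At an unadjusted p under 0.05, 1267 genes were lower (7.24%) and 548 were higher (3.13%).

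The 250 bases before the transcription start of the 3 called AP-1 genes are shown because these genes share a protein complex and differed together. They come from RefSeq on the GRCm38.p6 build, and run 5′ to 3′ on the strand of the gene. The windows are chr4:95052223-95052472 on the minus strand for Jun, chr12:85473640-85473889 on the plus strand for Fos and chr1:191183334-191183583 on the minus strand for Atf3. The Atf3 window precedes the RefSeq start, which lies inside the longer gene that GENCODE annotates. Capitals mark matches to the cAMP response element TGACGTCA or its short form TGACG, the AP-1 site TGANTCA, the heat shock element GAANNTTC or the CArG box of the serum response element, on either strand. The short form lies within the full cAMP response element.
Jun: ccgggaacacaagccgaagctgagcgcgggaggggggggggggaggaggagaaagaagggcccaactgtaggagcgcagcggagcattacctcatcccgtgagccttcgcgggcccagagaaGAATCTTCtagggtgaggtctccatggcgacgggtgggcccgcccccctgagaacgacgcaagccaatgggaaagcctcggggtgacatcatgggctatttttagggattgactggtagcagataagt
Fos: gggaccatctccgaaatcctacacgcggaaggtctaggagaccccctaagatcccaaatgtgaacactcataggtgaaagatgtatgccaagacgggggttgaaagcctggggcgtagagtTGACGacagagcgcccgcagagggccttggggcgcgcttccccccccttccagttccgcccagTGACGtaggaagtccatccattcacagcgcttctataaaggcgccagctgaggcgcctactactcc
Atf3: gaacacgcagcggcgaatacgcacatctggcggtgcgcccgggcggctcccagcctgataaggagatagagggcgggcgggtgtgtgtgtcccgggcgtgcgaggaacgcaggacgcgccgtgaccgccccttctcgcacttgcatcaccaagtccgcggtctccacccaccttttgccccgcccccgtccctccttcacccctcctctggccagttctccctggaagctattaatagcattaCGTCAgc
The Fos window holds the short cAMP response element at 129 to 125 and again at 66 to 62 bases before the start, and the Atf3 window holds it on the opposite strand at 7 to 3 bases before the start. The Jun window holds a single match, to the heat shock element, at 128 to 121 bases before the start. The short element occurred in 9 of 14 promoters of AP-1 genes (12 genes, 64.3%) and in 17.8% of the 32851 promoters in the table. The full element occurred in 1 of these 14 promoters and in 1.55% of all promoters. The AP-1 site itself was found in none of the 14 and in 6.75% of all promoters. The short element was not particular to AP-1 genes. It also occurred in 14 of 21 promoters of other immediate early transcription factor genes (66.7%). Its share was 39.1% for feedback inhibitors, 36.4% for heat shock genes and 15.4% for MHC class II genes. A match describes letters in this window and not a bound site.

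Jun, a subunit of the classical AP-1 dimer, had the lowest adjusted p of all genes. Jun stood at 2442.5, 6906 and 12283 CPM in the 3 naive brain libraries and at 645, 74.8 and 91.2 CPM in the day 30 libraries. Every day 30 library was below every naive library, and day 30 replicate 1 was the highest of the 3. The log2 difference was -5.16 ± 0.76 (SE), with an adjusted p of 0.000463 by limma. The gene lies at chr4:95049034-95052222 (minus strand, mm10, GENCODE vM21) and overlaps the antisense gene Junos. The sources used here do not say whether reads were counted by strand.

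Fos, the partner of Jun in that dimer, stood at 4988.5, 7851 and 17498 CPM in naive brain and at 1465, 214 and 361 CPM at day 30. The groups did not overlap, and replicate 1 was again the highest of the day 30 libraries. The log2 difference was -4.19 ± 0.76 (limma adjusted p = 0.0187). The gene lies at chr12:85473890-85477273 on the plus strand and overlaps no other annotated gene.

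Atf3, a stress-induced member of the ATF family that pairs with Jun, stood at 702, 1737 and 2378 CPM in naive brain. At day 30 it stood at 268, 49.6 and 44.3 CPM. All 3 values lay below the naive values, with replicate 1 nearest to them. The log2 difference was -4.07 ± 0.81 (limma adjusted p = 0.0319). Atf3 lies at chr1:191170296-191218039 on the minus strand in GENCODE vM21 and overlaps the small gene Gm24748.

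H2-Ab1, which encodes the beta chain of the MHC class II molecule I-A, was the single called gene whose day 30 replicate 1 was the lowest of its group. Its levels were 707, 1834 and 1923 CPM in naive brain and 38.3, 76.7 and 145 CPM at day 30, with no overlap. The log2 difference was -4.15 ± 0.78 (limma adjusted p = 0.0214). H2-Ab1 lies at chr17:34257689-34269419 on the plus strand.

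Glul joins ammonia to glutamate to form glutamine and is well known from astrocytes, though many cell types express it. It stood at 347, 403 and 756 CPM in naive brain and at 40.6, 18.8 and 16.3 CPM at day 30. The groups did not overlap, and replicate 1 was the highest of the day 30 libraries. The log2 difference was -4.29 ± 0.82 (limma adjusted p = 0.0214). Glul lies at chr1:153899944-153909723 on the plus strand and overlaps Mir8114 and, on the opposite strand, Teddm2.

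**Figure D1:**
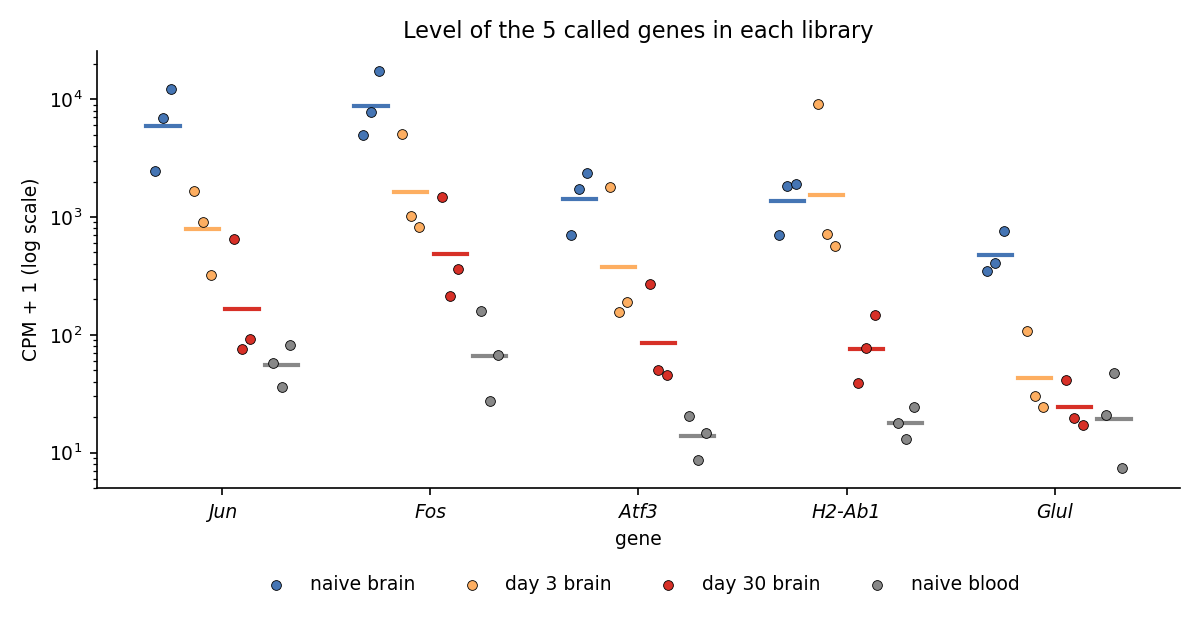
Level of the 5 called genes in all 12 libraries, as CPM + 1 on a log axis. Each point is 1 library, coloured by group, and each bar is the mean of the 3 log values. For all 5 genes the 3 day 30 points lie below the 3 naive brain points, and for Jun and Glul the day 3 points lie below the naive brain points as well.

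The same 5 genes were followed into the groups that the contrast did not use. Jun stood at 1658.5, 910.3 and 319 CPM at day 3 and at 56.2, 35.1 and 81.7 CPM in naive blood, so day 30 replicate 2 lay within the range of blood and replicate 3 just above it. Glul stood at 106, 29.1 and 23.6 CPM at day 3 and at 20.01, 46.6 and 6.34 CPM in blood. H2-Ab1 had another order, with 9191, 715 and 562 CPM at day 3, which spanned the naive brain levels, and 16.8, 12.1 and 23.6 CPM in blood. For H2-Ab1, day 30 was lower than day 3, by a log2 difference of -4.34 ± 0.78 (limma adjusted p = 0.00475), in a test that called 0.103% of all genes lower and 0.109% higher. That test uses again the day 30 values by which H2-Ab1 was called, so it is not separate support. For Jun, Fos, Atf3 and Glul the difference between day 30 and day 3 did not pass the threshold, with log2 differences from -0.83 (Glul) to -2.25 (Jun). Comparisons of day 3 and of blood with naive brain share the naive libraries with the main comparison, and are therefore given as levels.

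The 6 libraries were unequal in ways that touch every result here. Naive brain held 3469973, 14884783 and 21014171 reads and day 30 held 6844661, 1723245 and 1948611 reads, so a count of 3 reads was worth 0.298 to 1.38 CPM. As a measure of background, 1490 sensory receptor genes of the olfactory, vomeronasal and taste families took 884, 198 and 165 unscaled CPM in naive brain and 524, 3188 and 2016 at day 30. Day 30 replicates 2 and 3 thus stood apart from replicate 1 and from all naive libraries. In those 2 libraries the difference from naive brain also followed the level of a gene: over the 675 genes with a mean log2(CPM + 1) of 8 or more, the median difference was -1.17 in replicate 2, -0.94 in replicate 3 and 0.02 in replicate 1. Over the 4671 genes below a mean of 2 it was 1.27, 1.03 and 0.30 in replicates 2, 3 and 1. Lists of genes are therefore read against 2 references, all tested genes and the 3469 genes at a mean of 6 or more, called well expressed below. Of all genes 46.7% had a difference below 0, 7.24% were lower at an unadjusted p under 0.05 and 7.32% did not overlap in the lower direction. Of the well expressed genes it was 79.1%, 15.1% and 16.2%, with a median difference of -0.66 against 0.11 over all genes. The deposited scaling was unequal too. It multiplied plain CPM by 1.34, 1.60 and 2.09 in naive brain and by 1.55, 0.791 and 0.88 in day 30 replicates 1 to 3. Such a factor shifts all but the low genes of a library alike. With unscaled CPM the median difference of all genes was 0.62 and that of Jun was -4.48, against 0.11 and -5.16. The part of background, depth and scaling in the results was not tested beyond the values given with and without these libraries or that scaling.

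Without day 30 replicates 2 and 3, the remaining day 30 library was compared with the naive libraries in a fit of the 5 libraries of low background (these 4 and day 3 replicate 1). Day 30 and day 3 have 1 library each in this fit, so the spread comes from the 3 naive libraries alone and the lone day 30 library is assumed to vary like them. In it 11 genes (0.0629%) were lower and none was higher. Jun (log2 difference -3.20, adjusted p = 4.88e-05), Fos (-2.59, 0.00448), H2-Ab1 (-5.11, 3.58e-12) and Glul (-3.51, 0.0149) were among them by limma. Atf3 (-2.41, adjusted p = 0.0889) was not. The other 7 genes called there were H2-Aa, H2-Eb1, Cd74, the chemokine gene Cxcl2, the heat shock gene Hspa1a, the lymphoid surface gene Ly6d, and Mir5107, a microRNA gene that lies inside Cd74. Without day 30 replicate 1, by contrast, 484 genes (2.77%) were lower and 11 (0.0629%) higher, and all 5 genes were among the lower. Leaving out any other single library gave 1 to 10 calls. Jun was called in each of these fits, while Fos, Atf3 and Glul lost their call without day 30 replicate 2 or 3 or naive replicate 2 or 3, and H2-Ab1 without day 30 replicate 2 or naive replicate 2 or 3. No gene was called by edgeR (722 lower and 628 higher at an unadjusted p under 0.05) or by limma with a term for library background (268 and 413), whereas DESeq2 called 57 lower and 97 higher.

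**Figure D2:**
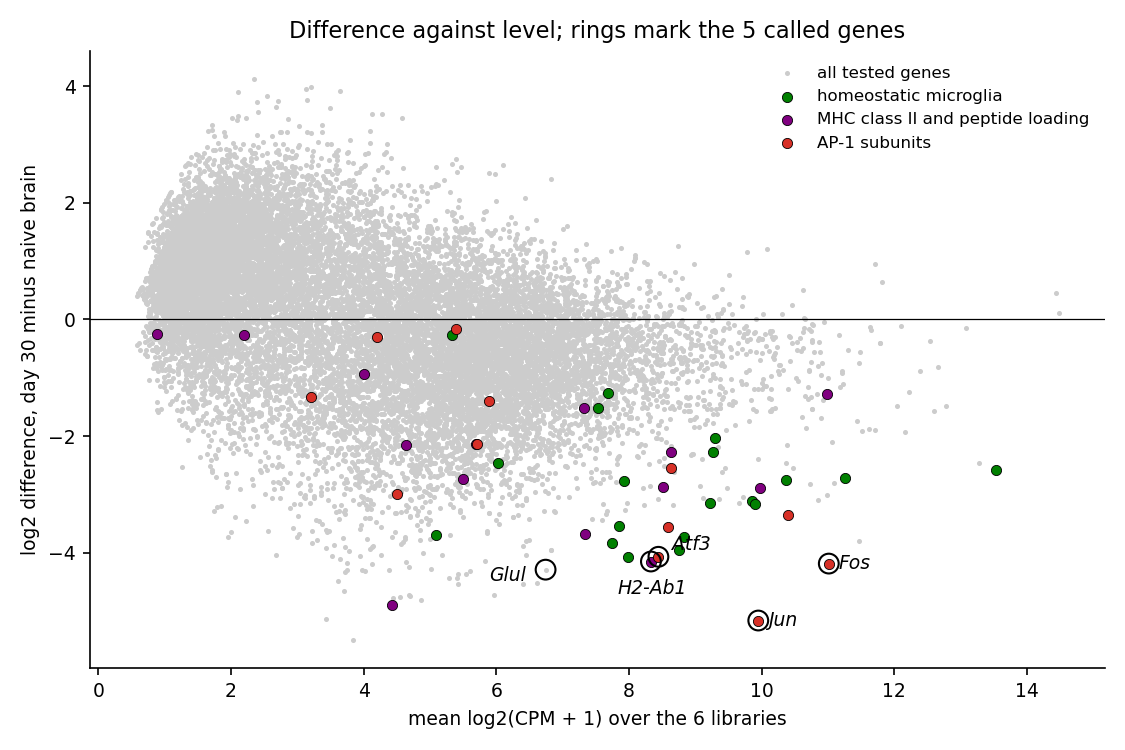
Log2 difference between day 30 and naive brain against the mean log2(CPM + 1) over the 6 libraries, with 1 point per tested gene. Coloured points are 3 gene lists and rings mark the 5 called genes. Genes of high level lie mostly below 0, with a median of -0.70 for the 675 genes at a mean of 8 or more, and Jun has the lowest difference of these 675 genes.

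The labelled cell type was checked next. T cell identity and receptor genes, such as the CD3 chains and the kinase Lck, were detected in all 6 libraries, with none of the 19 listed genes at 0 in any of them. They took 0.841, 1.1 and 0.905% of reads in naive brain and 1.57, 1.04 and 0.758% at day 30. Cd8a, which encodes the alpha chain of the CD8 coreceptor, stood at 797, 1571 and 1358 CPM in naive brain and at 2809, 518 and 766 CPM at day 30, and Cd4 did not exceed 7.94 CPM in any of the 6. Markers of microglia were present in every library too, and both kinds of cell or their RNA were thus in the sequenced material. Homeostatic microglia genes took 3.53, 2.23 and 5.27% of reads in naive brain and 1.24, 0.528 and 0.987% at day 30, with none of 19 at 0 in any of the 6. The ranges of the microglia share do not overlap between the groups, and those of the T cell share do.

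**Figure D3:**
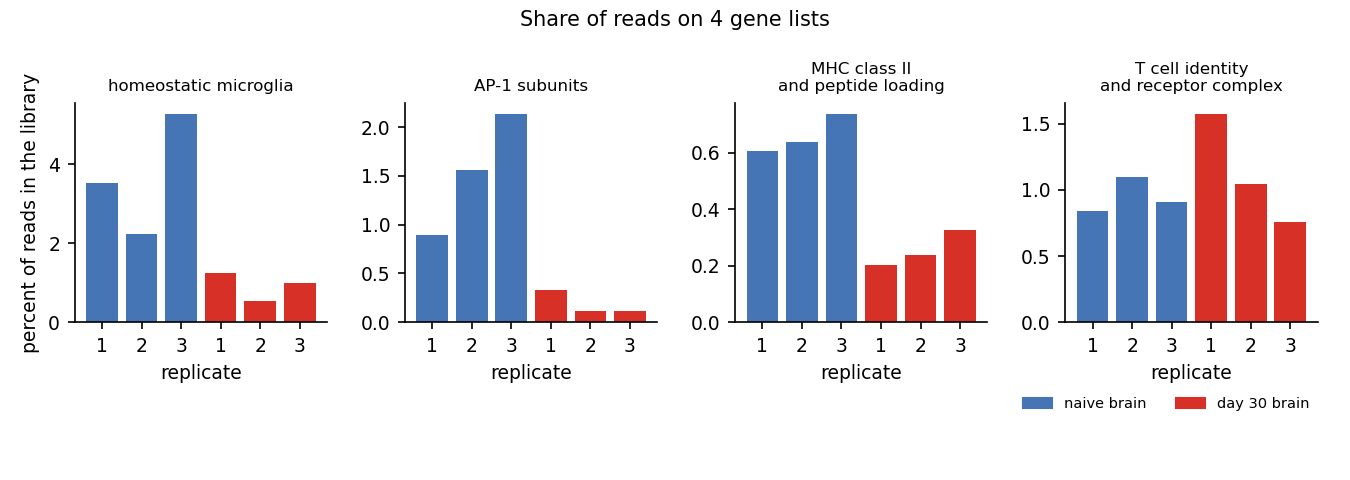
Percent of all reads of a library that fell on 4 gene lists, with 1 bar per library and a separate axis from 0 for each list. Microglia, AP-1 and MHC class II shares are higher in each of the 3 naive brain libraries than in each of the 3 day 30 libraries, whereas the T cell share is highest in day 30 replicate 1.

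Microglia genes were low at day 30 as a list, though none was called. Of the 19 genes 17 are well expressed. All 19 had a log2 difference below 0 (46.7% of all and 79.1% of well expressed genes), and 16 reached an unadjusted p under 0.05 (7.24% and 15.1%). In 14 of 19 all day 30 libraries lay below all naive libraries, against 7.32% of all genes, 16.2% of well expressed genes and 18.7% of the 675 genes at a mean of 8 or more, where 10 of the 19 lie. Their median log2 difference was -2.76, against 0.11 over all and -0.66 over well expressed genes, and it was -1.58, -3.85 and -3.05 in day 30 replicates 1 to 3. In bulk libraries, fewer cells of a type and less RNA per cell cannot be told apart. Dropping day 30 replicate 1 gave 14 calls among the 19, in a fit that called 2.77% of all genes lower. With just the 5 libraries of low background, which hold 1 day 30 library, the list median was -1.58. Cst3, which encodes the protease inhibitor cystatin C, stood at 27306, 15693 and 57198 CPM in naive brain and at 8461, 2362 and 5626 CPM at day 30 (log2 difference -2.59 ± 0.76, limma adjusted p = 0.177). Its day 30 values were all below the naive values.

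The complement genes C1qb and C1qc, which tag cells and synapses for removal, had log2 differences of -2.71 and -3.16, respectively. C1qb stood at 4859, 3989 and 12572 CPM in naive brain and at 2166, 486 and 817 CPM at day 30, without overlap, and with a limma adjusted p of 0.174. Among the defining markers, Tmem119 was at 538, 851 and 2447 CPM in naive brain and at 186, 31.7 and 37.5 CPM at day 30 (adjusted p = 0.0668 by limma). P2ry12, the purinergic receptor of resting microglia, stood at 1329, 762 and 2048.5 CPM and at 862, 99.2 and 350.0 CPM, and its groups overlapped. Tmem119 and P2ry12 were picked for description as defining markers after their values were seen.

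AP-1 was the list with the most called members. Of its 13 genes 12 were tested and Fosl1, which stayed at or below 3.97 CPM in the 6 libraries, was not. All 12 had differences below 0 (46.7% of all and 79.1% of well expressed genes), 3 were called lower (0.0286% of all genes), and 6 did not overlap between groups (7.32% and 16.2%). Of the 12, 6 are well expressed. The median was -2.76 over the list, and -1.62, -3.51 and -3.49 in day 30 replicates 1 to 3. The 3 calls became 6 without day 30 replicate 1, where 2.77% of all genes were called lower. They became 4 without naive replicate 1 (10 of 17489 genes), 1 without any other single library and 0 with edgeR. In the low background libraries, which hold 1 day 30 library, the list median was -1.62. Jund, which encodes another Jun protein, stood at 497, 1805 and 2581 CPM in naive brain and at 364, 56.02 and 67.3 CPM at day 30 (log2 difference -3.56 ± 0.77, limma adjusted p = 0.0668). Those groups did not overlap and the test was not passed.

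Junb, also a Jun protein, stood differently between day 30 libraries. It stood at 1759, 5628 and 8248 CPM in naive brain and at 1977.5, 256 and 148 CPM at day 30, so replicate 1 lay within the naive range and replicates 2 and 3 below it (adjusted p = 0.0716 by limma). Fosb stood at 1392, 559.8 and 1128.5 CPM in naive brain, and its day 30 values of 206, 111 and 193 CPM spread less than those of Jun, Fos and Atf3. Its log2 difference was -2.54 ± 0.73, which did not pass (adjusted p = 0.169 by limma). Mafk, a small Maf protein, differed by -2.13 with overlapping groups. Not every subunit differed in size like Jun, since Fosl2 had a log2 difference of -0.16 with 23.2, 65.03 and 53.5 CPM in naive brain and 50.1, 24.3 and 47.9 CPM at day 30. Fosl2 was picked as the smallest difference of the list.

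Other immediate early transcription factor genes lay lower at day 30 without a call. Of 19 tested, 12 are well expressed. Differences were below 0 in 17 (46.7% of all and 79.1% of well expressed genes), 9 reached an unadjusted p under 0.05 in the lower direction (7.24% and 15.1%) and 9 did not overlap (7.32% and 16.2%). The median was -2.02, and -1.10, -2.31 and -1.99 in the 3 day 30 libraries. Egr1, a zinc finger factor switched on by growth factor and antigen receptor signals, stood at 1846, 1863 and 4202 CPM in naive brain and at 823, 169 and 181 CPM at day 30 (log2 difference -3.05 ± 0.77, limma adjusted p = 0.0868). Its groups did not overlap. Btg2, an antiproliferative gene induced by p53 and by stress, stood at 1108, 2234 and 2849.6 CPM and at 1006, 164 and 69.1 CPM, with replicate 1 just below the lowest naive library.

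Klf6 and Btg1 show the range within this list. Klf6, a zinc finger factor, stood at 1711, 3665 and 3483 CPM in naive brain and at 1771, 565 and 251 CPM at day 30, with replicate 1 inside the naive range. Btg1, which is abundant in resting lymphocytes, stood at 1827, 1684 and 1919 CPM and at 2211, 1525 and 1464 CPM, and its log2 difference was -0.09 ± 0.66.

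Feedback inhibitors, which switch off kinase and NF-kB signalling after an immediate early response, had a median of -1.38, and -0.42, -2.01 and -1.97 in day 30 replicates 1 to 3. Of 23 tested, 18 are well expressed. Differences were below 0 in 20 (46.7% of all and 79.1% of well expressed genes), 8 were lower at an unadjusted p under 0.05 (7.24% and 15.1%), 9 did not overlap (7.32% and 16.2%) and none was called. Dusp1, a phosphatase of the MAP kinases p38 and JNK, stood at 3429, 5596 and 9744 CPM in naive brain and at 2397, 387 and 389 CPM at day 30 (log2 difference -3.003 ± 0.76, limma adjusted p = 0.093). Zfp36, which encodes a protein that destroys cytokine mRNAs, stood at 1476, 2344 and 4103 CPM and at 1016, 93.7 and 210.0 CPM (adjusted p = 0.0807 by limma). Neither gene overlapped between groups. Dusp2, a phosphatase abundant in activated T cells, stood at 1169.7, 1809 and 2098 CPM and at 2243, 254 and 204 CPM, with replicate 1 above all naive libraries and replicates 2 and 3 below them. Rgs1, a brake on chemokine receptor signalling that marks tissue-resident T cells, differed by -0.71 ± 0.74, a difference smaller than its SE.

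Heat shock genes, which encode chaperones induced by misfolded protein, had a median of -1.67 over 21 tested genes. In the 3 day 30 libraries it was -0.16, -2.74 and -2.12, so replicate 1 was near naive brain and replicates 2 and 3 were not. No gene was called, and 11 were lower at an unadjusted p under 0.05 (7.24% of all and 15.1% of well expressed genes, which 15 of the 21 are). No overlap was seen for 5 genes in the lower direction (7.32% and 16.2%) and 1 in the higher (6.92% and 2.77%). Hspa8, the constitutive Hsp70, stood at 1509, 3001 and 4812 CPM in naive brain and at 2577, 342 and 773 CPM at day 30. Hsp90ab1 stood at 1407, 2637 and 3126 CPM and at 1339, 237 and 251 CPM (log2 difference -2.39 ± 0.73, limma adjusted p = 0.208). Replicate 1 overlapped the naive range for Hspa8 and lay just below it for Hsp90ab1. The heat shock element GAANNTTC occurred in 6 of 22 promoters of the list (27.3%) and in 6.69% of all promoters. It also occurred in 3 of 13 promoters of MHC class II genes (23.1%).

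Hspb1 and Hspa1a were among the 10 largest differences in the lower direction that missed the threshold. Hspb1, a small heat shock protein gene, stood at 16.3, 25.6 and 563 CPM in naive brain and at 1.81, 0.459 and 0.452 CPM at day 30, with naive replicate 3 far above the others. Its values in day 30 replicates 2 and 3 were the worth of 1 read. Hspa1a, the stress-inducible Hsp70, stood at 31.0, 145 and 774 CPM and at 2.95, 1.38 and 16.7 CPM, with naive replicate 3 again the highest. Both had limma adjusted p-values of 0.0668. The rule for naming these 10 genes required 3 day 30 values below 3 naive values.

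MHC class II and peptide loading genes had a median of -2.22 over 14 tested genes. All 14 had differences below 0 (46.7% of all and 79.1% of well expressed genes, which 7 of the 14 are), 1 was called lower (H2-Ab1, against 0.0286% of all genes) and 10 did not overlap (7.32% and 16.2%). In the 3 day 30 libraries the median was -1.54, -2.69 and -1.71. Without day 30 replicate 1, where 2.77% of all genes were called lower, 4 of the 14 were called. None was called without day 30 replicate 2 or naive replicate 2 or 3. With low background libraries alone, which hold 1 day 30 library, the list median was -1.54. Cd74, the invariant chain that guides class II molecules to the endosome, stood at 1907.5, 3515 and 3045 CPM in naive brain and at 177, 446 and 631 CPM at day 30 (log2 difference -2.89 ± 0.77, limma adjusted p = 0.126). H2-Aa, the alpha chain that pairs with the H2-Ab1 product, stood at 818, 1188.5 and 974 CPM and at 24.9, 311 and 299 CPM (adjusted p = 0.208 by limma). Replicate 1 was the lowest day 30 library for both genes.

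Replicate 1 was instead the highest day 30 library for H2-DMb1, Lgmn and Ctss. H2-DMb1, a chain of the peptide exchange factor H2-DM, stood at 42.2, 178 and 208 CPM in naive brain and at 24.5, 1.38 and 0 CPM at day 30. Its log2 difference of -4.90 ± 1.09 did not pass (limma adjusted p = 0.0668). The endosomal proteases Lgmn and Ctss had log2 differences of -2.28 and -1.28, and Ctss overlapped between groups. At day 3 class II genes were at other levels than at day 30, with H2-Aa at 9408, 676 and 1282 CPM and Cd74 at 13624, 701 and 1196 CPM. For H2-Aa the test of day 30 against day 3 was passed (log2 difference -3.91 ± 0.88, limma adjusted p = 0.0329). Microglia, dendritic cells and B cells express class II genes. The share of reads on microglia genes was lower in the same 3 libraries as the class II share, which was 0.607, 0.638 and 0.738% in naive brain and 0.204, 0.237 and 0.327% at day 30. Within day 30 the orders differed, since replicate 1 had the highest microglia share (1.24, 0.528 and 0.987%) and the lowest class II share. At day 3 the class II share was 2.98, 0.728 and 0.802% and the microglia share 2.58, 0.643 and 1.14%. The part of microglia in these differences was not tested.

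**Figure D4:**
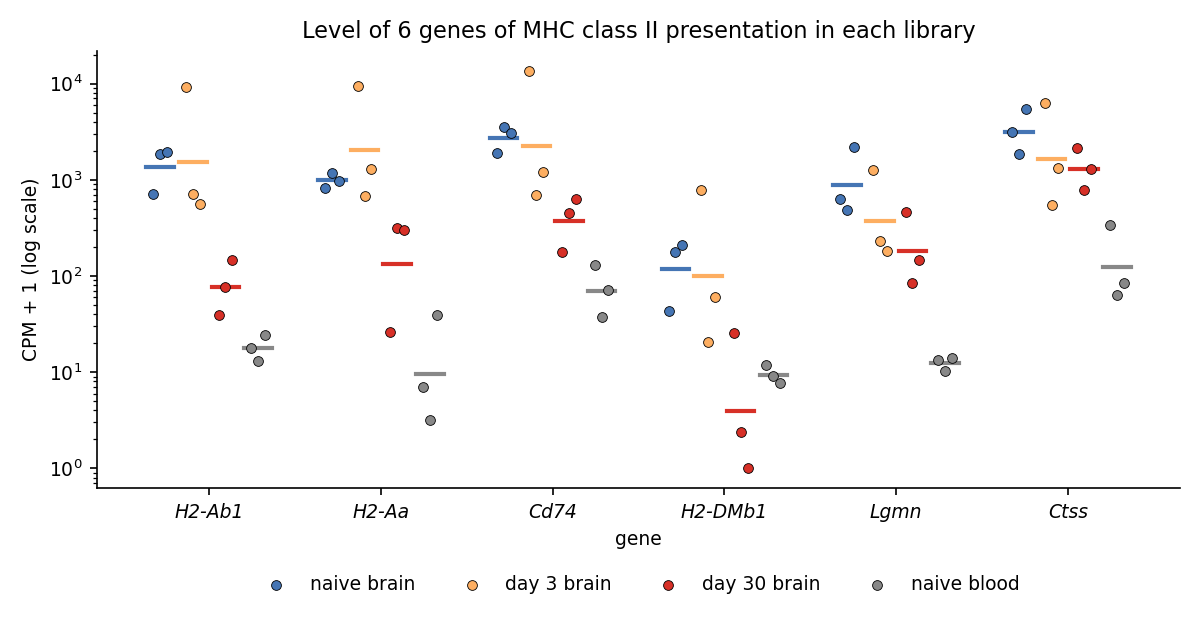
Level of 6 genes of MHC class II presentation in the 12 libraries, as CPM + 1 on a log axis, with 1 point per library and a bar for the mean of the 3 log values. H2-Ab1, H2-Aa and Cd74 are lower in every day 30 library than in every naive brain and every day 3 library, and Ctss overlaps between the brain groups.

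Monocyte and macrophage genes had a median of 0.47 over 23 tested genes. Of these, 13 lie below a mean log2(CPM + 1) of 4, where the median of all genes was 0.82 (below 2) or 0.64 (2 to 4). The list was at 0.75, 1.02 and 0.58 in day 30 replicates 1 to 3, with 7 below 0, none called, 2 not overlapping in the lower and 5 in the higher direction (7.32% and 6.92% of all genes). Differences ran from -2.37 to 3.53. The 4 genes described next were those of highest mean, and none of them is among the 5. Apoe, the lipid carrier of macrophages and glia, stood at 469, 2385 and 3526 CPM in naive brain and at 2687, 1138 and 1358.5 CPM at day 30. Ly6c2, a marker of inflammatory monocytes that memory CD8 T cells also carry, stood at 3578, 2564 and 4009 CPM and at 5827.5, 1711 and 2835 CPM. Both overlapped widely. Cd68, a lysosomal protein of phagocytes, stood at 892, 666 and 995 CPM and at 305, 102 and 134 CPM without overlap (limma adjusted p = 0.234), and Lyz2 differed by -1.85 ± 0.89.

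Fc receptor and ITAM genes, whose products pass on signals from antibodies and myeloid receptors, had a median of -2.05. Among 13 tested, 11 were below 0, 7 did not overlap in the lower direction (7.32% of all and 16.2% of well expressed genes, which 6 of the 13 are) and 1 in the higher (6.92% and 2.77%). Tyrobp, the adaptor DAP12, stood at 2012, 1509.6 and 2567 CPM in naive brain and at 544, 497 and 1221 CPM at day 30, and Fcgr3 at 604, 705 and 1459 CPM and 327, 37.2 and 132 CPM. Cathepsin and lysosome genes had a median of -1.90 and -0.47, -2.90 and -1.88 in the 3 day 30 libraries. All 17 are well expressed and all 17 were below 0, against 79.1% of well expressed genes. Ctsd, the aspartic protease cathepsin D, stood at 2167, 5854 and 12405 CPM in naive brain and at 3781, 239.7 and 276 CPM at day 30, where replicate 1 lay inside the naive range. No gene of these lists was called.

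Toll-like receptor genes had a median of -0.95, made of 0.01, -1.83 and -1.42 in replicates 1 to 3, so replicate 1 was level with naive brain. Of 20 genes 17 were below 0 and 5 did not overlap, against 46.7% and 7.32% of all and 79.1% and 16.2% of well expressed genes, which 7 of the 20 are. Irf5, a transcription factor downstream of these receptors in myeloid cells, stood at 269, 271 and 451 CPM in naive brain and at 69.3, 1.84 and 8.13 CPM at day 30 (log2 difference -4.72 ± 1.02, limma adjusted p = 0.0668). Unc93b1, which carries nucleic acid receptors to the endosome, stood at 318, 962 and 1452 CPM and at 165, 42.2 and 69.5 CPM (adjusted p = 0.0781 by limma). Neither overlapped between groups. Eicosanoid enzymes had a median of -1.07 over 12 genes, and -0.38, -1.24 and -1.21 in the 3 day 30 libraries. Tbxas1, thromboxane synthase, stood at 134, 74.1 and 236 CPM in naive brain and at 44.6, 0.459 and 0.903 CPM at day 30, at or near the worth of 1 read in replicates 2 and 3.

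The 10 largest differences in the lower direction that missed the threshold included 5 further genes of mixed function. Trim47, a ubiquitin ligase, stood at 169, 68.7 and 126 CPM in naive brain and at 24.5, 1.84 and 0 CPM at day 30. Slamf9, a receptor of the SLAM family found on myeloid cells, stood at 96.5, 235 and 77.4 CPM and at 21.1, 0 and 3.16 CPM. Sdf2l1, an endoplasmic reticulum chaperone partner, stood at 91.1, 145 and 172 CPM and at 51.4, 1.38 and 0 CPM. In these 3 genes day 30 replicate 1 was the highest of its group.

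Tmem176b, a membrane protein gene of myeloid cells, stood at 544, 183 and 671 CPM in naive brain and at 138, 3.21 and 8.13 CPM at day 30. Cxcl2, a neutrophil-attracting chemokine, had replicate 1 as the lowest, with 90.3, 17.2 and 166 CPM and 0.453, 3.21 and 1.81 CPM. Day 3 levels of Cxcl2 were 1990.4, 204 and 84.6 CPM, and day 30 was lower than day 3 by a log2 difference of -6.98 ± 1.02 (limma adjusted p = 0.000346). Together with H2-DMb1, Hspb1, Hspa1a, Irf5 and Tbxas1, these genes had limma adjusted p-values from 0.0668 to 0.0805 against naive brain.

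In the higher direction no gene was called by limma or by edgeR's quasi-likelihood test, while DESeq2 called 97 genes higher (0.555%) and 57 lower (0.326%). The lowest limma adjusted p among higher genes was 0.0993, that of Nubpl, a mitochondrial protein that supplies iron-sulfur clusters to respiratory complex I. Nubpl stood at 1.55, 0.646 and 1.99 CPM in naive brain and at 41.7, 30.8 and 36.1 CPM at day 30 (log2 difference 3.99 ± 1.03). Its 3 day 30 values were close to one another and all above naive brain. Fahd1, a mitochondrial decarboxylase, was listed at 0 in 2 naive libraries, with 0.387, 0 and 0 CPM in naive brain and 16.99, 13.8 and 16.3 CPM at day 30. It passed the filter only through the 3 day 30 libraries, where it was high.

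Klra1, an NK lectin receptor of the Ly49 family, stood at 0.387, 0.646 and 13.7 CPM in naive brain and at 17.9, 75.3 and 79.5 CPM at day 30. Ly49 genes are near-identical copies of each other, so its reads may belong in part to another member. Rgs18, a signalling regulator of platelets and blood cells, stood at 1.55, 0.431 and 0 CPM and at 3.85, 29.4 and 71.8 CPM, and Lpl, lipoprotein lipase, at 0, 0 and 2.68 CPM and 30.8, 8.72 and 18.5 CPM. The remaining 5 genes of this group, namely Tuft1, Ccdc136, Zwilch, Zfp808 and Hars2, had log2 differences from 3.53 (Hars2) to 3.96 (Tuft1) and limma adjusted p-values from 0.127 (Tuft1) to 0.252 (Hars2). All 10 had 3 day 30 values above 3 naive values, as the rule for naming them required. Klra1, Rgs18 and Lpl reached 1 CPM in only 1 naive library each, so they too passed the filter through day 30. Among genes of low level, such a lack of overlap was more frequent. It held for 12.6% of genes below a mean log2(CPM + 1) of 2 and for 7.98% of those at 2 to 4.

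The day 30 libraries did not share a direction for T cell genes. T cell identity genes had a median of -0.58, made of 0.52, -0.69 and -1.18 in replicates 1 to 3, and none of 19 was called. Cd8b1, the CD8 beta chain, stood at 1803, 2137 and 2349.5 CPM in naive brain and at 3843, 689 and 420.4 CPM at day 30, with replicate 1 above and replicates 2 and 3 below all naive libraries. Cd3g showed the same order, at 1268, 1820.5 and 2152 CPM and 2883, 1056 and 844 CPM. Ptprc, which encodes the leukocyte antigen CD45, stood at 986, 1447 and 1636 CPM and at 2099, 2004 and 1566 CPM and differed by 0.50 ± 0.66. With unscaled CPM the list median was 0.10, so its sign depended on the scaling. The median of all genes moved as well, from 0.11 to 0.62, and the list stayed below it. Of the 19 genes 18 are well expressed. On the deposited scale the median of well expressed genes was -0.66, slightly below the -0.58 of the list.

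Cytotoxic effector genes had a median of -0.21, with 0.81, -0.58 and -0.74 in the 3 libraries and none of 20 called. Nkg7, a cytotoxic granule protein, stood at 6775, 5945 and 7547 CPM in naive brain and at 9196, 3742 and 4149.9 CPM at day 30. Klrd1, the CD94 chain of an NK receptor on CD8 T cells, stood at 425, 364 and 308 CPM and at 553, 622 and 1005 CPM, higher in all 3 day 30 libraries, with a log2 difference of 0.95 ± 0.66 (limma adjusted p = 0.594). Ctsw, a protease of killer lymphocytes, stood at 1001, 2137 and 2578 CPM and at 2741, 271 and 454 CPM. None of these differences passed the test.

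Tissue-resident memory genes, which hold T cells in an organ, had a median of -0.12 (0.67, -0.24 and -0.72 in replicates 1 to 3) and no called gene among 17. Cxcr6, a chemokine receptor of resident cells, stood at 652, 1395 and 989.9 CPM in naive brain and at 3651, 461 and 540.1 CPM at day 30, a log2 difference of 0.01 ± 0.82. Cd69, which blocks exit from tissue, stood at 742, 1067 and 572 CPM and at 1467, 402 and 559 CPM. Both were highest in day 30 replicate 1 and overlapped between groups. Rgs2, an inhibitor of G protein signalling, was lower in all 3 day 30 libraries, at 924, 1219.9 and 2714 CPM and 701, 314 and 318 CPM (limma adjusted p = 0.38).

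Genes of naive and recirculating T cells had a median of -0.60, and -0.22, -0.92 and -1.13 in replicates 1 to 3, with none called. In the lower direction 6 of 18 did not overlap, against 7.32% of all and 16.2% of well expressed genes, which 12 of the 18 are. Klf2, which drives genes for exit from tissue, stood at 727, 1474 and 2781 CPM in naive brain and at 449, 140.0 and 125 CPM at day 30 (log2 difference -2.85 ± 0.74, limma adjusted p = 0.109), without overlap. Ccr7, the lymph node homing receptor of T cells and dendritic cells, stood at 251, 635 and 1236 CPM and at 570.5, 15.6 and 28 CPM, with replicate 1 inside the naive range. Tcf7, the transcription factor TCF-1, differed by -0.58 ± 0.71. Inhibitory receptor genes had a median of -0.11, with Pdcd1 (PD-1) at 29.1, 494 and 158 CPM and 173, 22.5 and 55.1 CPM, and Ctla4 at 206, 205 and 133 CPM and 209, 153 and 82.6 CPM.

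Homing receptor genes had a median of -0.97 over 18 genes, made of -0.03, -1.29 and -0.96 in replicates 1 to 3, and none was called. Selplg, the selectin ligand PSGL-1, stood at 2429.8, 4349 and 8694 CPM in naive brain and at 3237, 212 and 372 CPM at day 30, where replicate 1 lay inside the naive range. Itgb1, the shared integrin beta-1 chain, differed by 0.18 ± 0.72. Cx3cr1, the fractalkine receptor of both microglia and effector T cells, stood at 764, 1693 and 3492 CPM and at 496, 52.8 and 72.3 CPM without overlap (limma adjusted p = 0.0668). Cytokine receptor genes had a median of -0.68, but 0.62, -1.52 and -0.67 in replicates 1 to 3, so the sign differed between libraries. With unscaled CPM the list median was 0.0006 and that of all genes 0.62, so the list median depended on the scaling and stayed below that of all genes. On the deposited scale it was close to the -0.66 of well expressed genes, which 14 of the 19 are. Il7r, the interleukin-7 receptor of memory cells, differed by -0.41 ± 0.65.

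Chemokines made by T cells and microglia were measured in all libraries. Ccl5, a chemokine stored by memory CD8 T cells, stood at 12334, 8289 and 11847 CPM in naive brain and at 4772, 2859 and 3429.6 CPM at day 30 (log2 difference -1.56 ± 0.76, limma adjusted p = 0.471). Ccl4, a chemokine secreted by activated T cells and microglia, stood at 3672, 1747 and 4649.5 CPM and at 856, 759 and 956 CPM (adjusted p = 0.356 by limma). Both were lower in all 3 day 30 libraries, without a call. Ccl3 and Xcl1 overlapped between groups, with log2 differences of -0.78 and -0.33. The list of 22 cytokines and chemokines had a median of -0.87, with 5 not overlapping in the lower and 1 in the higher direction (7.32% and 6.92% of all genes).

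Among the lists of 10 or more tested genes, the interferon response list had the median nearest to 0, at -0.06 over 25 genes. The 3 day 30 libraries differed, with medians of 1.20, -0.35 and -0.88. Bst2, which tethers viruses at the cell surface, was lower in all 3 libraries, at 231, 529 and 448 CPM in naive brain and 201, 50.5 and 80.4 CPM at day 30 (limma adjusted p = 0.377).

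MHC class I genes, glycolysis genes and cell cycle genes were close to naive brain in replicate 1 alone. MHC class I had medians of 0.12, -1.93 and -2.13 in replicates 1 to 3, and B2m, the shared light chain, stood at 10654, 7310.5 and 9672.5 CPM in naive brain and at 11650.0, 5912 and 8061 CPM at day 30. Glycolysis genes had medians of 0.17, -2.28 and -2.59, with Gapdh at 795, 1482 and 2257 CPM and 1503, 124 and 149 CPM. Cell cycle genes had medians of 0.37, -1.10 and -1.61, and Mki67, which marks dividing cells, stood at 14.3, 79.5 and 496 CPM and at 46.2, 40.9 and 71.8 CPM. None of the 56 genes tested in these lists was called.

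**Figure D5:**
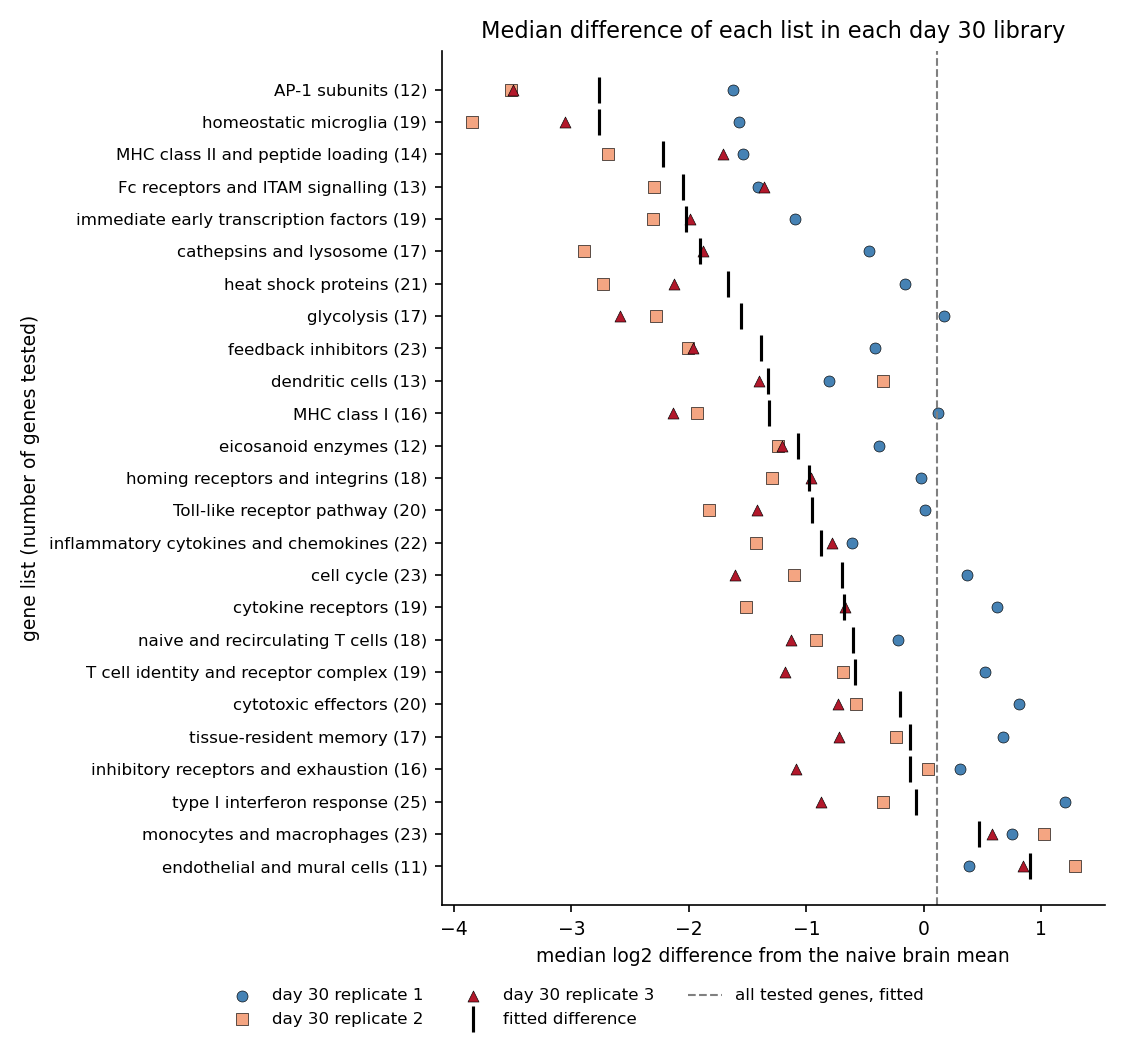
Median log2 difference from the naive brain mean for each gene list with at least 10 tested genes, shown for each day 30 library (symbols) and for the fit over all 3 (bars), with the fitted median of all tested genes as a dashed line. AP-1, microglia and MHC class II genes are below the dashed line in all 3 libraries, whereas heat shock, glycolysis and MHC class I genes are near it in replicate 1.

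Lists for other cells of the brain and blood gave no call. Neuron genes had a median of 1.46 over 9 tested genes and took 0.00265, 0.00046 and 0.00032% of reads in naive brain and 0.00155, 0.014 and 0.00744% at day 30. Endothelial and mural genes had a median of 0.90 over 11 genes. Both lists are mostly of low level, where day 30 replicates 2 and 3 stood above naive brain over all genes. Dendritic cell genes had a median of -1.33 over 13 genes, with differences from -3.16 to 2.52 and 10 below 0 (46.7% of all genes). At an unadjusted limma p under 0.05, 3 were lower and 3 higher (7.24% and 3.13% of all genes). Groups did not overlap for 1 gene in the lower and 2 in the higher direction (7.32% and 6.92%). Irf8, the 1 in the lower direction, is shared by microglia. It stood at 277, 1031 and 485 CPM in naive brain and at 81.3, 142 and 79.9 CPM at day 30. B cell markers stayed at or below 0.0168% of reads and neutrophil markers at or below 0.018% in each of the 6 libraries. CD4 and regulatory T cell genes took 0.0264, 0.0162 and 0.011% in naive brain and 0.0178, 0.044 and 0.0266% at day 30. Natural killer cell genes took 0.161, 0.103 and 0.143% in naive brain and 0.048, 0.105 and 0.247% at day 30. That list includes Tyrobp, described above with the myeloid receptors.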

How the data were processed

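Libraries were made from sorted CD8 T cells with a SMART-Seq v4 ultra-low-input kit, per the labels' protocols. The submitters' processing notes name STAR 2.5.3a, FastQC 0.11.2, the mm10 build, featureCounts of Subread, and edgeR. Annotation and strand setting do not appear in the sources used here. What the authors deposited is a signal per gene, CPM of a scaled library size, whose column sums differ, although the plan took the values for plain CPM. Values were whole multiples of the worth of 1 read (100% to within 1e-06), so read numbers were recovered. The kit adds no molecular identifiers, so floors cover counting error only.

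Differences are on log2(CPM + 1) and were tested with limma 3.58.1 (R 4.3.3; trend, two-sided, Benjamini-Hochberg over all 17489 genes, threshold 0.05) on all 12 libraries. An exact permutation of 3 against 3 libraries cannot go below 0.1. Alternatives used edgeR 4.0.16 and DESeq2 1.42.0 on recovered reads, other pseudocounts, filters, scalings and library sets. Libraries under 1335 unscaled CPM on receptor genes were taken as low background, a split made after the data were seen. Named genes were called genes with a mean of at least 10 CPM and no overlap, up to 10 per direction at unadjusted p under 0.05, and the called members plus up to 4 of the highest mean from each of 33 lists. Predicted loci, receptor segments and pseudogenes were left out. Some genes that this rule names are not reported here. Of 512 listed symbols 504 matched, 4 matched an older symbol and 4 did not match. The members and lists were chosen with earlier results of these data known. Replicate numbers are not stated to pair the libraries and were not used as pairs. The deviations of same-numbered day 30 and naive brain libraries from their group means correlated at -0.42, -0.10 and -0.13. These values cannot decide on pairing, because the deviations within a group of 3 libraries sum to 0. Among tested genes, 46 share identical counts with another gene.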

Additional observations from a re-analysis of the deposited data

Results flagged for a closer look

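Day 30 and day 3 are 2 times of the same contrast with naive brain, and the difference between them was tested directly for every gene (limma, adjusted over 17489 genes). Of the 150 named genes, 8 passed, while of all tested genes 0.103% passed in the lower and 0.109% in the higher direction. Part of the named genes were chosen by their day 30 values, which this test uses again. H2-Ab1 (log2 difference day 30 minus day 3 -4.34 ± 0.78 SE, adjusted p = 0.00475) and H2-Aa (-3.91 ± 0.88, adjusted p = 0.0329) were lower at day 30, as were Cxcl2 (-6.98 ± 1.02, adjusted p = 0.000346) and Slamf9 (-4.58 ± 1.02, adjusted p = 0.0318). Hbb-bs, an adult beta globin gene, was lower as well (-6.88 ± 1.05, adjusted p = 0.000346). It shares identical counts with Hbb-b1, so its reads may belong to either copy. In the other direction, Cd3g (3.25 ± 0.73, adjusted p = 0.0329), Nkg7 (3.54 ± 0.77, adjusted p = 0.0279) and Cxcr6 (4.09 ± 0.82, adjusted p = 0.0145) were higher at day 30 than at day 3, while none of the 3 differed between day 30 and naive brain by more than 0.37 on the log2 scale. T cell identity genes as a whole moved with these 3, taking 0.355, 0.143 and 0.330% of reads at day 3 against 1.57, 1.04 and 0.758% at day 30, and their list median was -2.91 for day 3 minus naive brain. Day 3 replicates 2 and 3 also had the high receptor gene background of 7884 and 4700.2 unscaled CPM, and its part was not tested. H2-Ab1 alone of the 8 was also called against naive brain.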

How the results depend on the processing

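All 5 called genes kept their lower direction under all 22 alternatives. Jun passed the threshold in 20 (not with edgeR, adjusted p = 0.0613, or a term for library background, 0.217), H2-Ab1 in 15, Fos in 14, Glul in 13 and Atf3 in 12, and the highest adjusted p of the other 4 was 0.828 to 1.0. The number of genes called, 5 by the main test, depended on the setting. It was 1 with a pseudocount of 0.1 or a stricter filter of 5 CPM, 4 without a filter, and 0 with edgeR (722 lower and 628 higher at an unadjusted p under 0.05) or a background term (268 and 413). Larger numbers came from a pseudocount of 5 (56), median centring (59), the 6 libraries of the groups alone (85), the 9 brain libraries (48), library quality weights (197) and DESeq2 (154, of which 97 higher). Low background libraries alone gave 11. A filter over all 12 libraries, added after the data were seen, gave 50. Unscaled CPM gave 74 (13 higher, 61 lower) and moved the median of all genes from 0.11 to 0.62, and quantile normalization gave 12 (4 higher, 8 lower). Leaving out 1 library gave 1 to 495 calls, the 495 without day 30 replicate 1, 10 without naive replicate 1, 1 without day 30 replicate 2 or naive replicate 2, and 2 without day 30 replicate 3 or naive replicate 3.

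With the replicate number as a block 103 genes were called, all 5 among them, but the numbers are not stated to pair the libraries.

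Under the background term 36 of 150 named genes had the other sign, none of them among the 25 chosen by size. Depth limits low genes: 3 reads were worth 0.298 to 1.38 CPM.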
